A study of Mus musculus with 12 samples.

Results

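The interferon-response genes described here were the rows of the count table whose symbols belong to the Irf, Stat, Ifit, Ifitm, Oas and Gbp families or are Mx1, Mx2, Isg15, Bst2, Usp18 or Rsad2. They were chosen by name alone, and the name pattern for Ifit also takes in the Ifitm genes, a separate family of membrane proteins. They numbered 58 of 24421 genes. Of these, 43 reached at least 10 counts in 6 or more libraries and were tested, together with the other genes that passed the same filter, 15111 in all.

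RNA sequencing had been done on bilateral striatum, the forebrain region that receives dopamine input, from male mice of the inbred strain C57BL/6J, with 6 libraries from mice given varenicline at 2 mg/kg and 6 from mice given saline. Varenicline is a smoking cessation drug and a partial agonist at nicotinic acetylcholine receptors. Mice of both groups drank 20% ethanol in the dark phase over 3 cycles of 2 days each, and mice of both groups had saline before drinking in the first cycle. In the other 2 cycles they received varenicline or saline 30 min before the ethanol of the second day, and striatum was taken when the last session ended. The comparison is thus of varenicline with saline in animals that had all drunk ethanol, and no animals without ethanol were analysed here. The labels do not give the age of the mice, nor whether a library came from 1 mouse, so p-values here measure only the spread among these samples, which may be technical.

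Interferons are cytokines released after a cell senses foreign or misplaced nucleic acid. Their receptors act through the Janus kinases Jak1, Jak2 and Tyk2 on STAT proteins; type I interferon brings Stat2 and Irf9 into a complex that binds the interferon-stimulated response element (ISRE), while interferon gamma acts through a different element, the gamma-activated site (GAS). The genes switched on this way encode antiviral effectors, and in brain without infection microglia, endothelial cells and neurons carry the pathway at a low, tonic level.

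The ISRE core, GAAA followed by any 2 bases and GAAA again, was searched on both strands in the RefSeq promoter windows of build GRCm38.p6, the assembly called mm10 in the submitters' processing notes. A window runs from 250 bases before a start site to 50 after it. At least 1 window was found for 43 of the 58 genes, and 22 of those 43 held the core, or 51.2%, against 3.99% of all 27025 genes in the table. The core was found in 5 of 5 Gbp genes with a window, 3 of 3 single effectors, 5 of 6 Ifit genes, 4 of 8 Oas genes, 2 of 6 Stat genes, 2 of 7 Ifitm genes and 1 of 8 Irf genes. The GAS motif, TTCNNNGAA, was in 10 of the 43, or 23.3%, against 9.55% of all genes. The stretches below, each 80 bases, written 5′ to 3′ along the gene and with the ISRE core in capitals and all upstream of the start site, belong to effectors described later and to Ifit1bl1 and Gbp7, whose groups differed at an unadjusted p under 0.05.
Isg15, chr4:156200846-156200925, minus strand: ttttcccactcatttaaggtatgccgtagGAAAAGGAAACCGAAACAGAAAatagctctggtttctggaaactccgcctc
Rsad2, chr12:26456528-26456607, minus strand: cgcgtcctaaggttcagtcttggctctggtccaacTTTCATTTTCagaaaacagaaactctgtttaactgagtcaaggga
Bst2, chr8:71537555-71537634, minus strand: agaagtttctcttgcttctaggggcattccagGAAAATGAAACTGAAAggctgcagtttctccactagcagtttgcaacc
Ifit1, chr19:34640759-34640838, plus strand: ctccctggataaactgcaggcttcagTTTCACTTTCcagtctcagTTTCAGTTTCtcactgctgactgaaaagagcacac
Ifit3, chr19:34583355-34583434, plus strand: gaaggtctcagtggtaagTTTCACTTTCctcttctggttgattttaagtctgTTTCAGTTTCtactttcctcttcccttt
Ifit1bl1, chr19:34602028-34602107, minus strand: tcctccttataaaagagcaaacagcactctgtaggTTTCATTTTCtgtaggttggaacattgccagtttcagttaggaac
Gbp7, chr3:142530248-142530327, plus strand: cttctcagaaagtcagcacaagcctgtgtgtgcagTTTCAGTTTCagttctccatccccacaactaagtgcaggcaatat
Isg15 carried 3 overlapping cores, Bst2 carried 2 that overlap, and Ifit1 and Ifit3 carried 2 that stand apart. In Ifitm3, not printed, both of its 2 cores lie just after the start site, and in no other window does a core lie wholly there. A match describes letters in a window and is not evidence of binding.

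**Figure D1:**
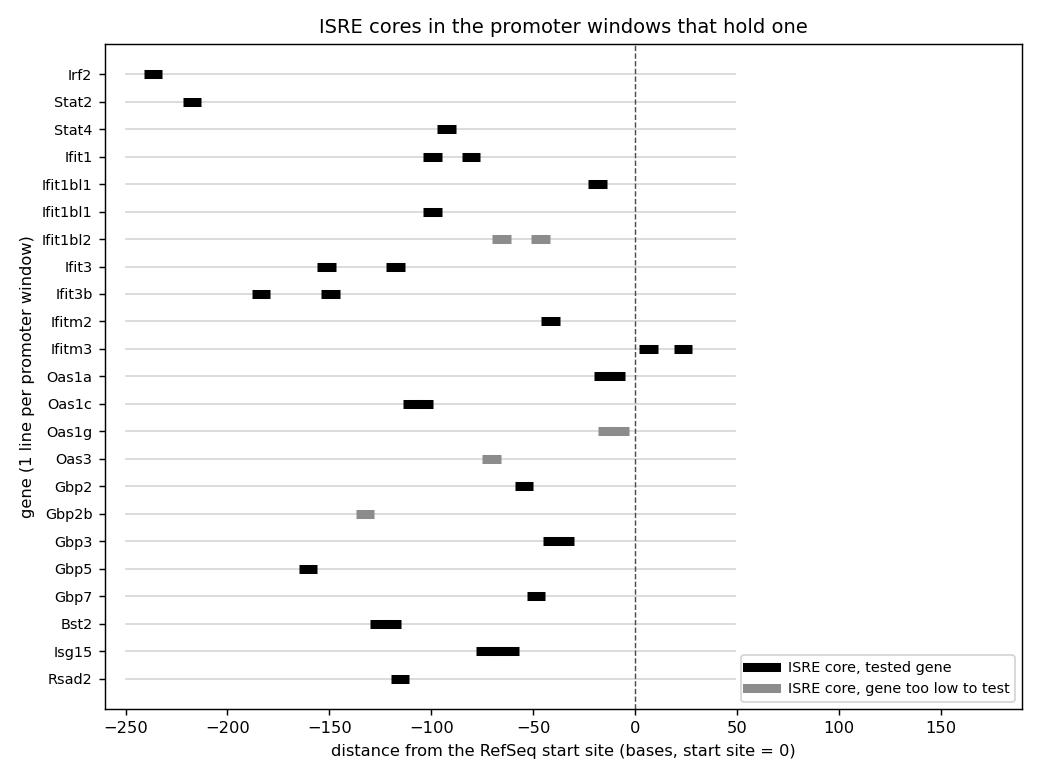
Position of each ISRE core (blocks) in the promoter windows that hold at least 1, in bases from the RefSeq start site (x axis), 1 line per window (y axis), with black for tested genes and grey for genes too low to test. Of the 23 windows drawn, that of Ifitm3 alone has its cores after the start site.

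Striatal levels differed widely between the families. Levels between genes are compared as FPKM, the authors' values per exon length and library size, averaged over all 12 libraries. The signalling proteins were the most abundant as families, with a median of 6.45 FPKM over the 7 Stat genes and 2.99 FPKM over the 9 Irf genes. Ifitm3, which blocks the fusion of viruses with the cell membrane, was the highest single gene at 18.2 FPKM, followed by Stat3, the STAT protein of interleukin-6 signalling, at 16.2 FPKM. Ifitm2, a close relative of Ifitm3, stood at 12.8 FPKM, and Irf3, which is activated by nucleic acid sensors and turns on interferon beta, at 11.0 FPKM.

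Stat2 and Irf9 of the type I complex were readily detected, at 8.23 and 6.01 FPKM. The genes that interferon induces most strongly were lower. Ifit3 averaged 4.13 FPKM, Bst2 (tetherin, which holds budding virus at the cell surface) 3.69 FPKM, Isg15 (a ubiquitin-like modifier) 3.53 FPKM, and Rsad2 (viperin) 0.622 FPKM. The Oas genes, whose products make the activator of RNase L, had a median of 0.0835 FPKM over 12 genes, and Oasl2 was the only one above 1 FPKM, at 1.30. In all, 27 of the 58 genes exceeded 1 FPKM and 9 exceeded 5 FPKM: 4 Stat, 3 Irf and 2 Ifitm genes.

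**Figure D2:**
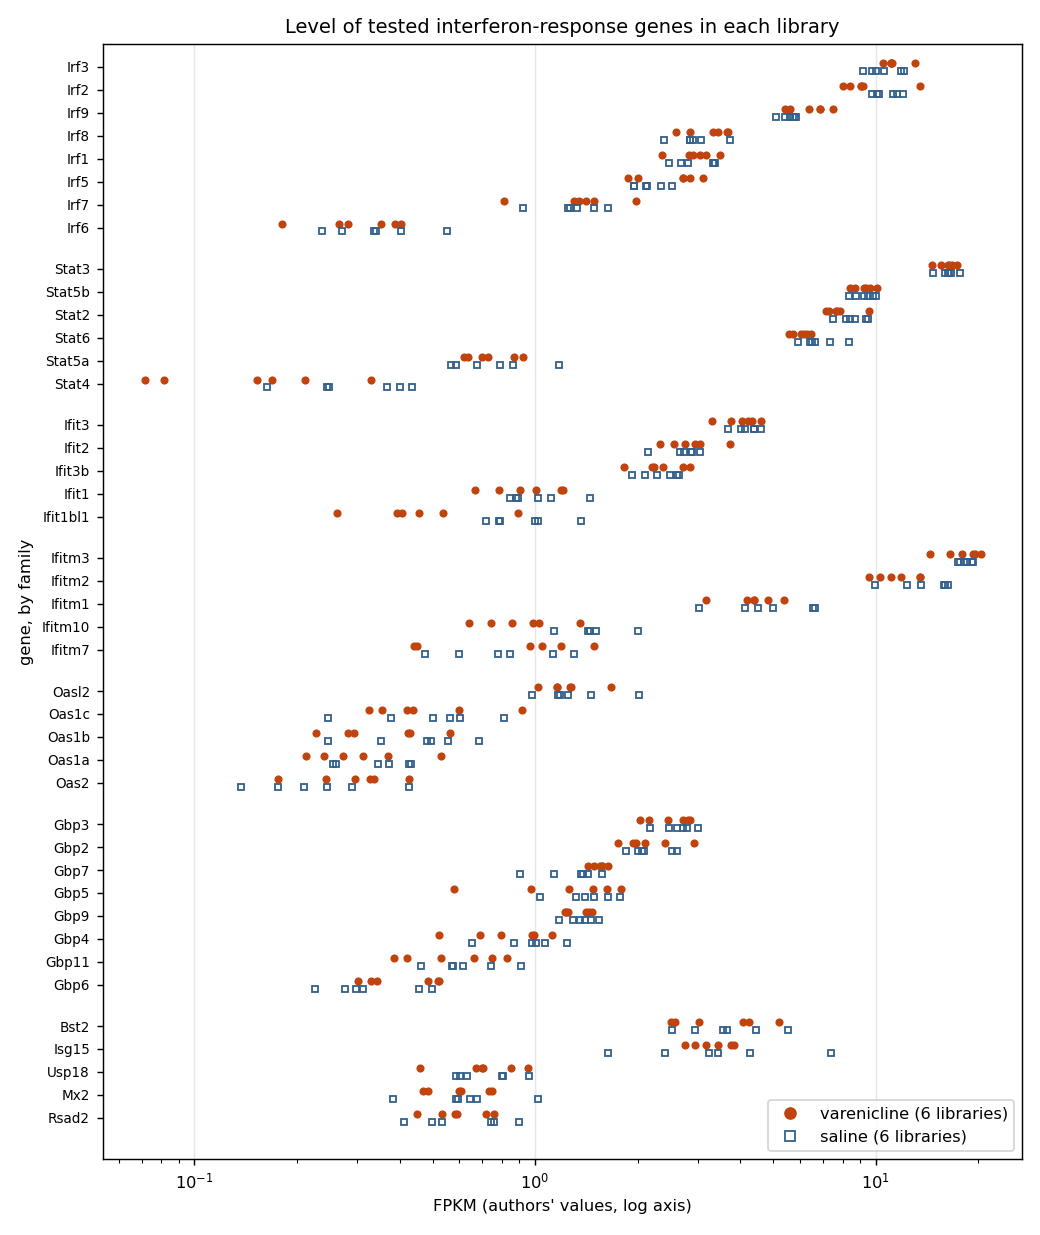
Level of the tested genes but 1, by family (y axis), in each of 6 varenicline libraries (filled circles, upper row of each gene) and 6 saline libraries (open squares, lower row), as the authors' FPKM on a log axis. Ifitm3 and Stat3 lie highest, at means of 18.2 and 16.2 FPKM, and the groups overlap in every gene drawn.

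The other 15 genes fell below the filter. Oas1d and Gbp2b had 0 counts, and 9 others had between 1 and 21 counts over all 12 libraries together. The 4 nearest the filter were Ifit1bl2 with 105 counts in all, the lymphoid factor Irf4 with 102, Mx1 with 72 and Oasl1 with 69. Ifit1bl2 reached 10 counts in 3 varenicline and 2 saline libraries, Mx1 in 1 and 2, Irf4 in 0 and 3, and Oasl1 in 0 and 2. C57BL/6J mice are known to carry a defective Mx1 gene. At the depth of single libraries, 3 counts corresponded to between 0.109 and 0.221 CPM (counts scaled to library size), so lower levels were not measurable.

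Library totals averaged 19584990 ± 4307321 counts with varenicline and 23324001 ± 5011872 with saline (SD, n = 6 each), a difference with p = 0.190 in a two-sided exact permutation test. The 58 genes together took between 0.0377% and 0.0413% of a library, or 5255 to 11202 counts. All 12 markers of cortical excitatory neurons had lower means with varenicline, 10 of them at an unadjusted p under 0.05 in edgeR, with a median log2 fold change of -1.07. Their summed level ran from 233 to 1157 CPM with varenicline and from 773 to 1319 CPM with saline, and the varenicline library at 1157 CPM, varenicline 6, stood apart from the other 5, the highest of which had 560 CPM. All 14 markers of striatal projection neurons had higher means with varenicline, with a summed level of 6764 to 10965 CPM with varenicline and 6255 to 9931 CPM with saline. Higher means were also found for 8 of 9 tested markers of septum and pallidum (7 at an unadjusted p under 0.05, median log2 fold change 0.75), 10 of 11 of oligodendrocytes and 9 of 10 of astrocytes (4 each at an unadjusted p under 0.05). All 10 ependymal and all 10 choroid plexus markers also had higher means, 0 of them at an unadjusted p under 0.05 in edgeR. The choroid plexus markers summed to 96.3 to 1980 CPM with varenicline and 84.4 to 1722 CPM with saline. In bulk tissue, fewer cells of a type and less RNA per cell cannot be told apart. The part of dissection in these differences was not tested.

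None of the 43 genes passed an adjusted p of 0.05 between varenicline and saline in edgeR's quasi-likelihood test, and neither did any other gene (0% of 15111 called). Their smallest adjusted p in edgeR was 0.144. DESeq2 called 0 of the 24 to which it gave an adjusted p (19 had none), against 2.63% of all genes. Limma-voom with sample weights called 3 of the 43, or 6.98%, against 13.9% of all genes. Irf9 and Gbp7 were higher with varenicline at an unadjusted p under 0.05, which is 2 of 43 or 4.65%, against 7.27% of all genes tested. Ifit1bl1, Ifitm10 and Stat4 were lower by the same measure, which is 3 of 43 or 6.98%, against 9.64% of all genes. Both shares lie below those of the whole table. In no gene of the 43 were the groups without overlap, against 0.43% of all genes with every varenicline library above every saline library and 0.324% with every one below.

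The direction of the means was uneven. Of the 43, 30 had a log2 fold change below 0 (69.8%, against 47.7% of all genes) and 13 above 0 (30.2%, against 52.3%), with a median of -0.08 beside 0.0074 over all genes. By family, 7 of 7 Stat, 5 of 5 Ifitm, 4 of 5 Oas and 4 of 5 single effectors had lower means with varenicline, although in the authors' FPKM Ifitm7 turned, leaving 4 of 5 Ifitm genes lower, and in their Cuffnorm values Stat5a turned as well, leaving 6 of 7 Stat genes lower. The Irf genes had 5 higher and 3 lower, Ifit 2 and 3, and Gbp 4 and 4, or 2 and 6 for Gbp in the FPKM and Cuffnorm values. With the cortical marker score as a covariate, the Irf genes had 7 higher and 1 lower, the Stat genes 3 and 4, and the Ifit genes 0 and 5. In that fit the Oas genes had 2 and 3 and the Gbp genes 2 and 6, while the Ifitm genes (0 and 5) and single effectors (1 and 4) were unchanged. Under limma-voom with sample weights, 5 of 7 Stat, 4 of 5 Ifitm, 4 of 5 Oas and 3 of 5 single effectors were lower. Leaving out 1 library at a time gave 5 to 7 of the 7 Stat genes lower. Of the Ifitm genes 4 or 5 of 5 were then lower, of the Oas genes 3 or 4 of 5, and of the single effectors 3 to 5 of 5.

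The precision was uneven too. Standard errors on the log2 scale ran from 0.0560 for Stat3 to 0.369 for Stat4, with a median of 0.168. For 21 of the 43 genes the 95% interval lay wholly within 0.5 on the log2 scale to either side of 0, a 1.41-fold difference, and these included 8 of the 9 genes above 5 FPKM. For 4 genes the interval reached beyond a 2-fold difference.

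**Figure D3:**
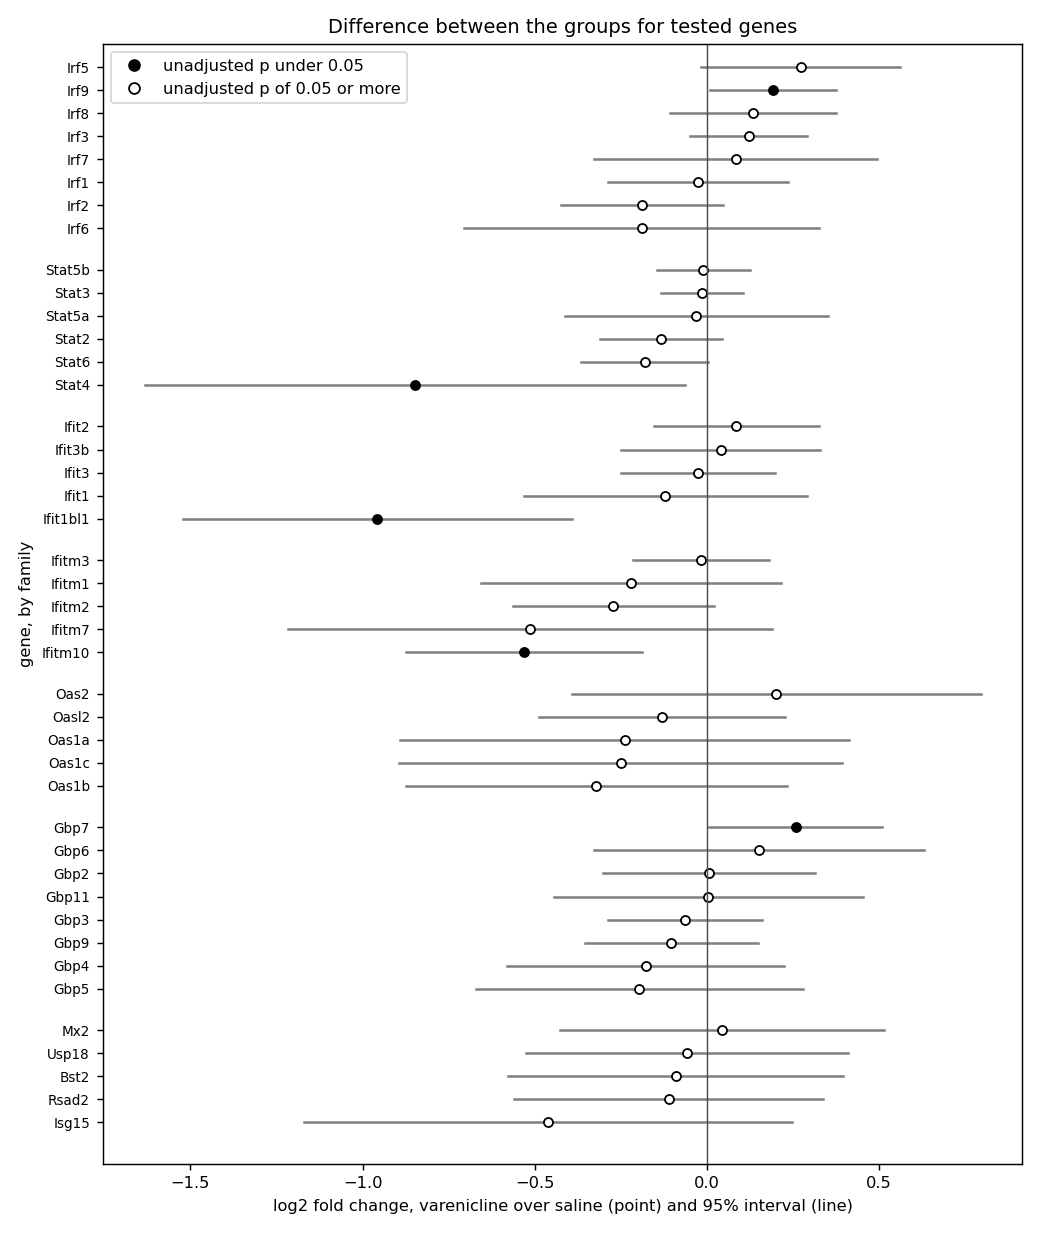
Log2 fold change, varenicline over saline, of the tested genes but 1 (points, y axis by family) with its 95% interval (lines), calculated from the edgeR test. Filled points have an unadjusted p under 0.05: Ifit1bl1 (-0.96), Stat4 (-0.85) and Ifitm10 (-0.53) to the left, Irf9 (0.19) and Gbp7 (0.26) to the right.

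Among the transcription factors, Irf9, the DNA-binding subunit of the type I complex (chr14:55603985-55610030), had 13.8, 16.6 and 19.0 CPM as lowest, median and highest with varenicline, against 12.8, 14.6 and 15.1 CPM with saline. The varenicline libraries 1, 3, 4 and 6 lay above every saline library, while 2 and 5 lay among them. The log2 fold change was 0.19 (SE 0.0856, unadjusted p 0.0401, edgeR adjusted p 0.271). The interval of Irf9 ran from 0.01 to 0.37.

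Irf5, which relays Toll-like receptor signals in myeloid cells, had 3.76, 5.86 and 6.22 CPM with varenicline, against 4.02, 4.40 and 4.93 CPM with saline. Varenicline 3 to 6 were above every saline library and varenicline 1 was the lowest of all 12. The difference was 0.27 on the log2 scale (SE 0.136, edgeR adjusted p 0.320). Irf3 had 24.3, 25.5 and 30.5 CPM with varenicline, against 21.2, 22.9 and 27.9 CPM with saline, with overlapping groups and a log2 fold change of 0.12 (SE 0.0801, edgeR adjusted p 0.461), or 0.07 without varenicline 6, its highest library. Irf8, the factor that microglia need to develop, stood at 0.13, and Irf7, which amplifies type I interferon production, at 0.08 on the same scale, or at -0.02 without varenicline 6. All 14 microglial markers were tested, 7 with higher and 7 with lower means and none at an unadjusted p under 0.05, and their summed level was 655 to 809 CPM with varenicline and 689 to 766 CPM with saline.

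Stat4, the STAT protein of interleukin-12 signalling (chr1:51987148-52107189), was the lowest of the tested genes per length, at 0.240 FPKM. It had 0.174, 0.447 and 0.799 CPM with varenicline, against 0.408, 0.794 and 1.14 CPM with saline. Varenicline 6 was the highest of its group and saline 6 the lowest of its own. Varenicline 1, 4 and 6 lay inside the saline range, and saline 3, 4 and 6 inside the varenicline range. It reached 10 counts in 2 varenicline and 5 saline libraries. The log2 fold change was -0.85 (SE 0.369, unadjusted p 0.0357, edgeR adjusted p 0.258), with an interval from -1.63 to -0.06.

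The other STAT genes lay closer to 0. Stat6, which serves interleukin-4, had 19.5, 23.1 and 24.7 CPM with varenicline, against 21.7, 24.6 and 31.1 CPM with saline, and the saline mean exceeded all 6 varenicline values. The groups overlapped, and the log2 fold change came to -0.18 (SE 0.0863, edgeR adjusted p 0.303). Stat3 was the most narrowly measured, with 62.4, 70.6 and 75.6 CPM with varenicline against 63.6, 70.7 and 77.0 CPM with saline. Its interval of -0.14 to 0.10 around -0.02 leaves room only for small differences. Stat2, a partner of Irf9, was at -0.13 (edgeR adjusted p 0.431), or at 0.01 once the cortical score was a covariate.

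Of the RNA-binding Ifit proteins, Ifit1bl1 (chr19:34592888-34601968) had the largest difference in means. It had 0.464, 0.979 and 1.77 CPM with varenicline, against 1.45, 1.88 and 2.74 CPM with saline. The varenicline libraries 1 to 5 lay below every saline library, and varenicline 6 alone lay among them. Its mean was 1.00 ± 0.428 CPM with varenicline and 1.95 ± 0.480 CPM with saline (SD, n = 6 each), a log2 fold change of -0.96 (SE 0.265, unadjusted p 0.00248, edgeR adjusted p 0.144).

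The same cluster on chromosome 19 holds Ifit1, Ifit2, Ifit3 and Ifit3b, whose log2 fold changes lay closer to 0. Ifit2 had 8.63, 10.6 and 13.8 CPM with varenicline, against 8.11, 10.4 and 11.3 CPM with saline, for a log2 fold change of 0.09 (SE 0.112, edgeR adjusted p 0.738). Ifit3 had 5.83, 7.49 and 8.50 CPM with varenicline, against 6.54, 7.62 and 7.98 CPM with saline, at -0.03 (SE 0.105, edgeR adjusted p 0.922). Ifit1 was at -0.12 and Ifit3b at 0.04. Of all 150-base stretches of the Ifit3 transcripts, 18.5% are identical to Ifit3b, so reads could be split between them. For Ifit1bl1 no such stretch is shared, and 6.60% of its 50-base stretches are.

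Ifitm10 (chr7:142326110-142372259), a divergent relative of the antiviral Ifitm genes that lies apart from their cluster, had 2.96, 4.23 and 5.06 CPM with varenicline, against 4.40, 5.92 and 7.89 CPM with saline. Saline 6 was the only saline library inside the varenicline range, below varenicline 3, 4 and 6. The log2 fold change was -0.53 (SE 0.161, unadjusted p 0.00469, edgeR adjusted p 0.147).

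The abundant antiviral members of the family differed less. Ifitm2 had 4.07, 5.23 and 5.98 CPM with varenicline, against 4.35, 6.45 and 7.18 CPM with saline, a log2 fold change of -0.27 (SE 0.138, edgeR adjusted p 0.327). Ifitm3 had 6.33, 8.33 and 8.79 CPM with varenicline, against 7.78, 8.01 and 8.48 CPM with saline, and its interval ran from -0.21 to 0.18 around -0.02. Its saline libraries all fell within the varenicline range. Ifitm7 was at -0.51 (SE 0.330) in counts and above 0 in FPKM, and 26.7% of its exon length overlaps a gene on the other strand, and the use of strand in counting is not stated in the sources used here.

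**Figure D4:**
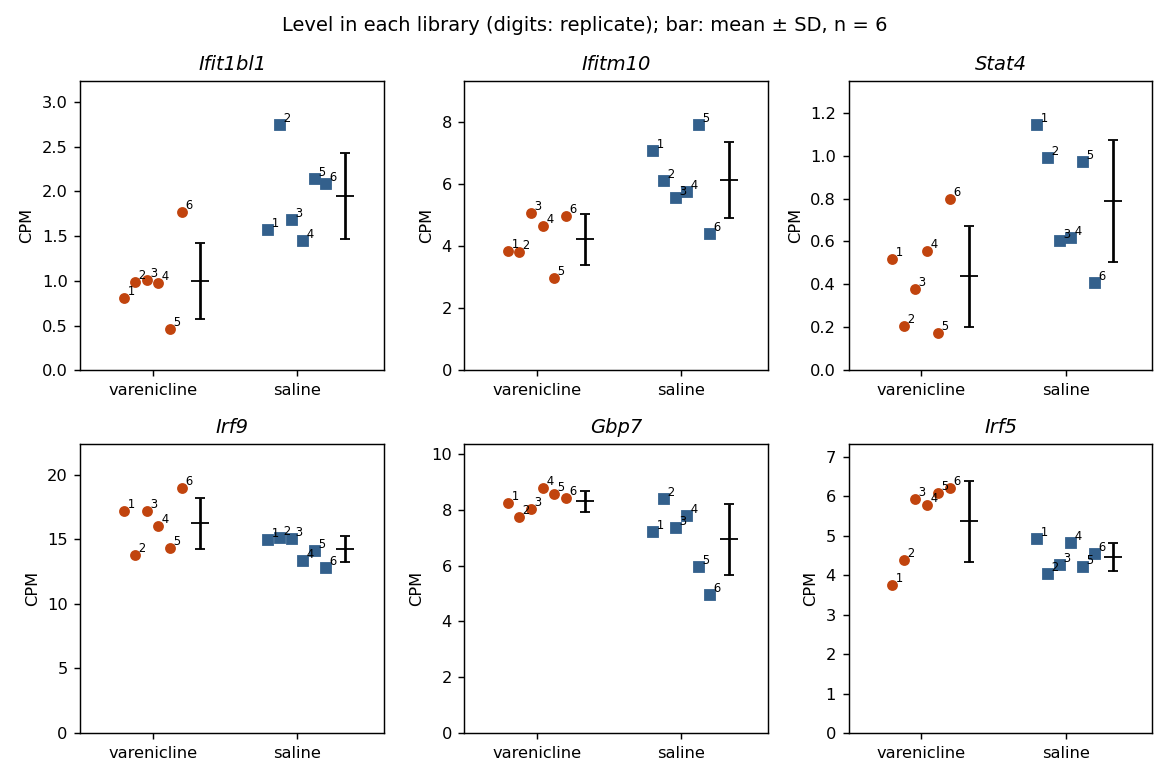
CPM (y axes, from 0) in each library for the 5 genes with an unadjusted p under 0.05 and for Irf5, with varenicline (circles) left of saline (squares), the digit giving the replicate and the bar the mean ± SD of 6 libraries. Varenicline 6 is the highest of its group in Ifit1bl1 (1.77 CPM), Stat4 (0.799 CPM), Irf9 (19.0 CPM) and Irf5 (6.22 CPM).

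Irf2, chosen after its values were seen, represses as well as activates interferon targets. It had 18.1, 20.97 and 30.8 CPM with varenicline, against 22.96, 24.4 and 27.5 CPM with saline, so that varenicline 6 was the highest and the other 5 the lowest of all 12 libraries. Over all libraries the log2 fold change of Irf2 came to -0.19 (SE 0.111, edgeR adjusted p 0.399).

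Without varenicline 6, edgeR called 1609 genes (10.6%), among them 3 of the 43 (6.98%), all lower with varenicline. They were Ifit1bl1 at -1.18 (edgeR adjusted p 0.00699), Ifitm10 at -0.58 (adjusted p 0.0380) and Irf2 at -0.31 (adjusted p 0.0135), and Stat4 was at -1.10 (adjusted p 0.0731). Other libraries moved Ifitm10 more, to between -0.44 without saline 5 and -0.60 without saline 6, neither called. Without varenicline 6, Irf9 was at 0.14 (edgeR unadjusted p 0.106) and Gbp7 at 0.25 (unadjusted p 0.0656). At an unadjusted p under 0.05, that fit had 0 of the 43 higher and 6 lower, against 25.8% of all genes in either direction. The cortical marker score, the mean log2 CPM of the 12 markers, ran from 4.75 to 5.51 in the saline libraries. It was 2.58 to 4.28 in varenicline 1 to 5 and 5.41 in varenicline 6. Score and treatment thus nearly coincide apart from varenicline 6, and a fit with both separates them poorly. With the cortical marker score as a covariate over all 12 libraries, Ifit1bl1 was at -0.52 (edgeR unadjusted p 0.127), Ifitm10 at -0.40 (unadjusted p 0.0888), Stat4 at -0.15 (unadjusted p 0.739) and Irf2 at 0.09. That fit called 0 of the 43 and 0.0794% of all genes. In it Irf9 was at 0.30 (unadjusted p 0.0161, edgeR adjusted p 0.960) and Gbp7 at 0.29 (unadjusted p 0.0985). Limma-voom with sample weights called 2102 genes (13.9%), including Ifit1bl1, Ifitm10 and Stat4 (3 of 43, or 6.98%), with adjusted p of 0.00832, 0.0117 and 0.0388. DESeq2 called 397 genes (2.63%) and 0 of the 24 interferon-response genes with an adjusted p, with Ifitm10 at 0.0505. It gave no adjusted p for Ifit1bl1, whose unadjusted p of 0.000646 was below the 0.00166 of Ifitm10, nor for Stat4.

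**Figure D5:**
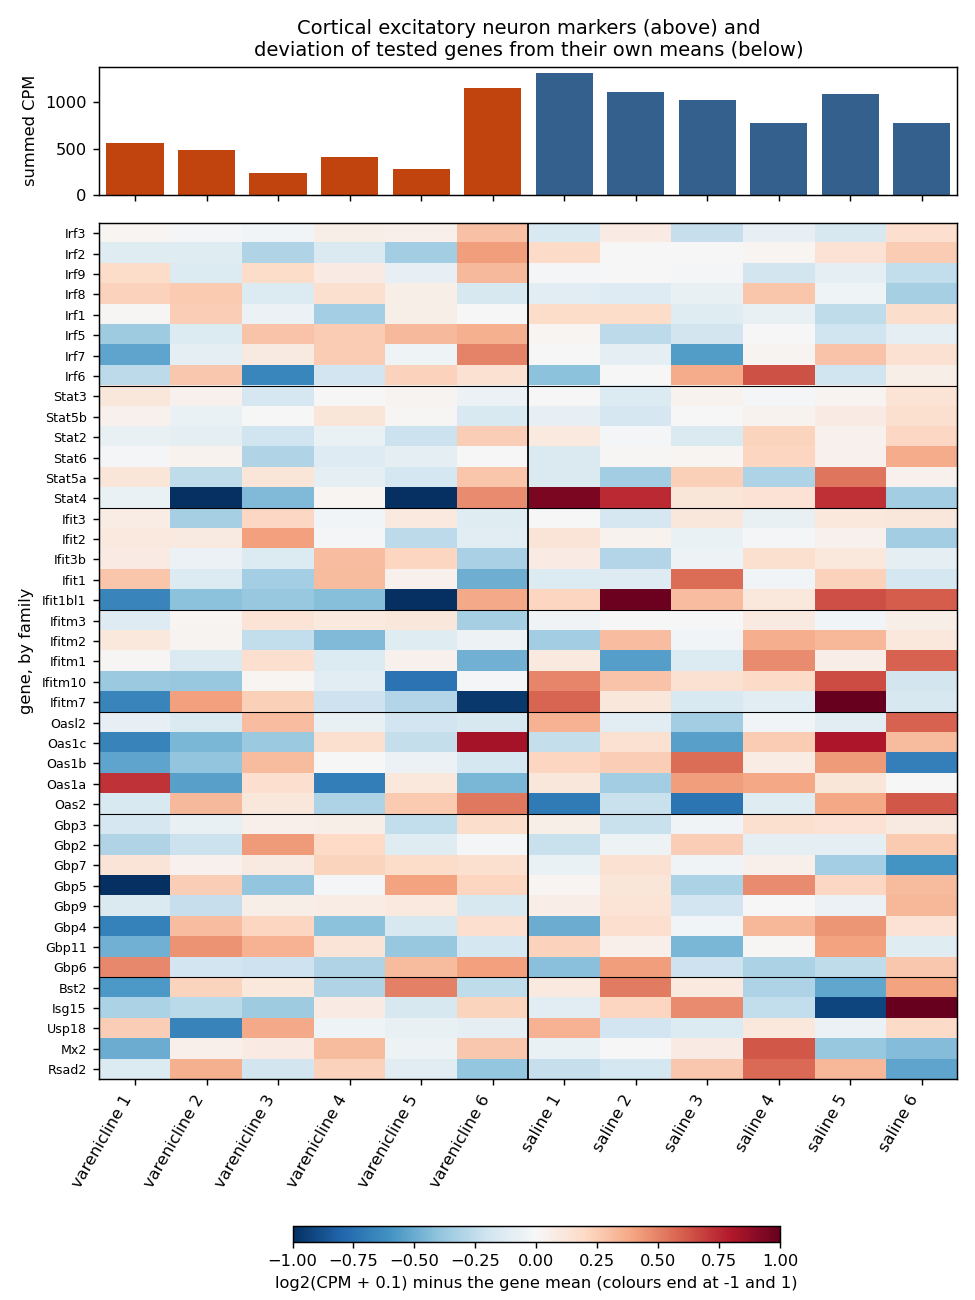
Above, summed CPM of the 12 cortical excitatory neuron markers in each library. Below, log2(CPM + 0.1) of the tested genes but 1, each minus its mean over the 12 libraries (colour, ending at -1 and 1), with varenicline left of the line and saline right of it. Varenicline 6 has 1157 CPM of cortical markers and the highest value in 5 of the 8 Irf genes.

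For the 15 tested Irf and Stat genes, varenicline 6 held the highest value of all 12 libraries in 6, against 9.97% of all genes tested, namely Irf2, Irf3, Irf5, Irf7, Irf9 and Stat2. The summed level of the 15 was 311 CPM there, against 268 to 296 CPM in the other varenicline libraries and 281 to 318 CPM in the saline libraries, so it lay inside the saline range. For the 28 other tested genes varenicline 6 held the highest value in 2 and the lowest in 4, against 8.96% of all genes for the lowest. The summed level of those 28 ran from 90.3 to 105 CPM with varenicline and from 98.0 to 107 CPM with saline, so the groups overlapped. Single genes varied more than their sum, by a median of 1.94-fold between the highest and lowest library, from 1.23-fold in Stat3 to 6.57-fold in Stat4.

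The guanylate-binding proteins, GTPases that attack the membranes of intracellular microbes, had means on both sides. Gbp7 (chr3:142530336-142550151) had 7.76, 8.36 and 8.79 CPM with varenicline, against 4.94, 7.29 and 8.41 CPM with saline. The varenicline libraries were tightly grouped, and saline 5 and 6 were the lowest. The log2 fold change was 0.26 (SE 0.118, unadjusted p 0.0458, edgeR adjusted p 0.285). Gbp4 had 2.44, 3.99 and 4.93 CPM with varenicline, against 2.78, 4.43 and 5.42 CPM with saline, at -0.18 (SE 0.189, edgeR adjusted p 0.665). Gbp3, the most abundant of the family per length at 2.57 FPKM, was at -0.06 (SE 0.105, edgeR adjusted p 0.797).

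The oligoadenylate synthetases were too low for narrow intervals. Oas1b, which is truncated in many laboratory strains, had 0.517, 0.719 and 1.00 CPM with varenicline, against 0.453, 0.939 and 1.21 CPM with saline, a log2 fold change of -0.32 with an interval from -0.87 to 0.23 (edgeR adjusted p 0.556). Oas1c had 0.664, 0.882 and 2.05 CPM with varenicline, against 0.732, 1.29 and 2.02 CPM with saline, and its highest value was that of varenicline 6. This gave a log2 fold change of -0.25 (SE 0.303, edgeR adjusted p 0.710), but 0.16 once the cortical score was a covariate. Oasl2 had 3.42, 3.61 and 4.86 CPM with varenicline, against 3.06, 3.73 and 5.94 CPM with saline. The difference was -0.13 on the log2 scale (SE 0.168, edgeR adjusted p 0.728).

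Among the single effectors, Isg15 had the largest difference in means and the widest spread. It had 1.00, 1.11 and 1.54 CPM with varenicline, against 0.648, 1.37 and 3.58 CPM with saline, so that the varenicline libraries all lay inside the saline range. The groups differed by -0.46 on the log2 scale (SE 0.333, edgeR adjusted p 0.502), and by -0.08 without saline 6, the library with 3.58 CPM. Rsad2 had 1.65, 2.01 and 2.83 CPM with varenicline, against 1.496, 2.30 and 3.30 CPM with saline, at -0.11 (SE 0.211, edgeR adjusted p 0.827). Bst2 had 1.403, 2.04 and 3.07 CPM with varenicline, against 1.46, 2.28 and 3.11 CPM with saline, at -0.09 (SE 0.229, edgeR adjusted p 0.871). Usp18, which removes Isg15 from proteins, and Mx2 were at -0.06 and 0.04.

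Set by the promoter letters, the 18 tested genes with an ISRE core had a median log2 fold change of -0.13, with 3 higher and 15 lower means. The 15 with a window but no core had a median of -0.02, with 6 higher and 9 lower. These medians are a description, and the difference between them was not tested. Lower means were found for 69.8% of the 43 genes and for 47.7% of all genes. The 2 sets also differ in family, with most Ifit, Gbp and single effector genes in the set with a core. Most Irf genes are in the other. The lowest and the highest of the set with a core were Ifit1bl1 at -0.96 and Gbp7 at 0.26.

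Upstream of these genes, interferon transcripts were close to absent. Of 21 interferon genes, 18 had 0 counts in all 12 libraries, and Ifng had 5 counts, Ifnab 2 and Ifne 2 in all. Of the receptors and kinases, 8 of 9 were tested, 5 with higher and 3 with lower means, and none was called in edgeR. Ifngr2, the signalling chain of the interferon gamma receptor, was at -0.35 (unadjusted p 0.00726, edgeR adjusted p 0.162), and Jak2, its kinase, at 0.17 (unadjusted p 0.0294). Of the nucleic acid sensors and their adaptors, 16 of 17 were tested, with 10 higher and 6 lower means. The RNA sensor Ifih1 (MDA5) was the single one at an unadjusted p under 0.05, at -0.30 (edgeR adjusted p 0.288).

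Of the inhibitors of the pathway, 14 of 15 were tested, 7 in each direction, with the RNA editor Adar at -0.11 (unadjusted p 0.0269) and the nucleotide hydrolase Samhd1 at 0.14 (unadjusted p 0.0434), neither called in edgeR. Of the other listed genes known to be induced by interferon, 50 were tested, 18 with higher and 32 with lower means, and a median of -0.03. Ifi44l, Cxcl9, Cxcl10 and Ccl5 fell below the filter. An unadjusted p under 0.05 was reached by 0 of the 50 with higher and 6 with lower means, against 7.27% and 9.64% of all genes. Among the lower were H2-T23, a non-classical MHC gene, at -0.42 (edgeR adjusted p 0.146) and Psmb10, an immunoproteasome subunit, at -0.51 (edgeR adjusted p 0.147).

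Of the 10 lymphocyte markers, Cd4 and Cd79a passed the filter and the other 8 did not. The T cell genes Cd3e, Cd3g and Cd8a had 15, 1 and 1 counts over all libraries, and the B cell genes Cd79a and Cd79b had 114 and 93. The 10 genes summed to 83.0 to 129 CPM with varenicline and 71.0 to 126 CPM with saline, nearly all of it Cd4, which averaged 105 CPM with varenicline and 95.7 CPM with saline. Of the 8 neutrophil markers only Csf3r passed, at 12.1 CPM with varenicline and 13.3 CPM with saline, while S100a8 had 27 counts and S100a9 50 in all. The part of these cells in the results was not tested. Endothelial markers, 12 in number, summed to 421 to 486 CPM with varenicline and 431 to 471 CPM with saline. Adding the microglial or the endothelial score as a covariate left Ifit1bl1 at -0.93 and -0.97.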

How the data were processed

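Per the submitters' processing notes, the authors used Trimmomatic and FastQC, TopHat2 and featureCounts, and DESeq2, Cuffdiff and Cuffnorm, with build mm10. No version, annotation or strand setting is stated in the sources used here. Per the labels, sequencing gave single reads of 150 nt from TruSeq RNA libraries. The deposited gene counts are whole numbers, not normalized, with 1 column per library, and were the main values. The authors also deposited FPKM values, used for levels between genes, and a signal of scaled counts named for Cuffnorm, used as an alternative. Gene positions come from the table of counts.

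Genes with at least 10 counts in 6 or more libraries were tested with edgeR 4.0.16 in R 4.3.3 (TMM, quasi-likelihood F test, Benjamini-Hochberg adjustment over 15111 genes, threshold 0.05). CPM were scaled by TMM. Fold changes are log2, varenicline over saline. Labels gave 2 groups and no batch. Genes were named by smallest unadjusted p and highest FPKM within each family, with Irf2, Irf7, Irf8, Stat2, Ifit1, Ifit3b, Ifitm7, Usp18 and Mx2 added after their values were seen; of the other pathway lists, up to 2 genes with the smallest p are given. The counts and medians include 1 gene of the set that is not reported here. The gene set and the lists were chosen with earlier results of these data known.

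Alternatives were other size factors and filters, DESeq2 1.42.0, limma 3.58.1 (voom with sample weights; log2 of FPKM plus 1 or 0.1; log2 of Cuffnorm values plus 1), marker scores as covariates, and each library left out. In simulated data of 15111 genes, edgeR recovered 34% of 1.25-fold changes, 78% of 1.5-fold, 92% of 2-fold and 100% of 4-fold ones. It made 8 false calls there, and 0 calls when nothing was changed. The changed genes all averaged above 1 CPM and no library was made to deviate, so these rates may be too high for the interferon-response genes. Their spread between libraries beyond counting error (edgeR's biological coefficient of variation) had a median of 0.186, against 0.107 over all genes. Promoters are from RefSeq. Of the 55 windows of these genes, 46 had the 25 bases compared after the start site in a GENCODE vM21 transcript in the same direction and 0 in the opposite one. Shared sequence was counted in the same transcripts. Floors cover counting error only. Figures were drawn with matplotlib 3.10.9.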

Additional observations from a re-analysis of the deposited data

Results flagged for a closer look

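Irf3 in the library varenicline 6 had a log2 CPM of 4.93, while the other 5 varenicline libraries lay between 4.61 and 4.70. The gap to its nearest neighbour took up more of the group's range than Dixon's criterion allows for 6 values. Oasl2 in the library varenicline 3 had a log2 CPM of 2.31, while the other 5 lay between 1.81 and 1.92, and it met the same criterion. Without varenicline 6 the log2 fold change of Irf3 was 0.07, against 0.12 with it. Chance gives about 1 such flag in 20 groups of values. Over the 42 sets of 6 values examined, 2 were flagged and 2.1 were expected. Varenicline 6 is also the varenicline library with the highest summed cortical markers, at 1157 CPM, and the part of that in the Irf3 value was not tested.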

How the results depend on the processing

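Over the whole table edgeR called 0 genes. DESeq2 called 397, limma-voom 2102, and edgeR 12 with the cortical score and 5 with the endothelial score as a covariate. With each library left out in turn the count was 0 to 1609, the highest without varenicline 6. Of the 43 interferon-response genes, limma-voom called 3, or 6.98%, against 13.9% of all genes. Leaving out a library gave 0 to 3 calls, with 3 without varenicline 6 (6.98%, against 10.6% of all genes) and 0 without any other library. At an unadjusted p under 0.05 and higher with varenicline, the count of 2 became 1 under limma-voom, 1 with FPKM plus 0.1, 1 with the Cuffnorm values, 1 with the cortical score, and 0 to 3 with a library left out. Lower with varenicline, the count of 3 became 6 under limma-voom, 1 with the cortical score, and 2 to 6 with a library left out. The share of all genes at an unadjusted p under 0.05, in either direction, moved as well. It was 16.9% in the main fit, 28.7% under limma-voom and 4.74% with the cortical score. With a library left out it was 13% to 25.8%, the highest without varenicline 6.

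Log2 fold changes near 0 turned sign, and so did some further from 0. In the main fit Oas1c was at -0.25 and Irf2 at -0.19, and Ifitm7, which turned in the FPKM and Cuffnorm values, at -0.51. Under limma-voom Stat3 was at 0.024, Ifitm3 at 0.039 and Rsad2 at 0.0069. With the cortical score Stat3 was at 0.0063, Ifit2 at -0.0067 and Oas1c at 0.16, and among the other genes given Stat2 was at 0.013, Irf2 at 0.09 and Ifit3b at -0.08. Without varenicline 6 Irf7 was at -0.020 and Mx2 at -0.0017. With each library left out in turn, the range was -0.044 to 0.016 for Stat3, -0.0031 to 0.14 for Ifit2, -0.077 to 0.034 for Ifit3, -0.049 to 0.040 for Ifitm3, -0.22 to 0.0045 for Oasl2, -0.21 to 0.017 for Rsad2 and -0.21 to 0.023 for Bst2. Other scaling factors turned the sign of none of the genes named by the rule and moved the median of all genes by less than 0.1. The causes of these changes were not tested. No paired analysis was possible because every title carries the same replicate number, and numbers given in deposition order pair nothing.

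The depth and the spread of 6 libraries a group limit what can be seen, since 21 of the 43 intervals lay within a 1.41-fold difference and the rest did not. Oas1a, Gbp6, Ifit3 and Ifit3b share stretches of 150 bases with near copies, so their counts are uncertain.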
